A study of Mus musculus with 16 samples.

Results

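The mitochondrial genome transcripts were the genes that the RNA-seq table places on the mitochondrial chromosome or whose symbol starts with mt-, and both criteria found the same 13 genes of the 25965 in the table. All 13 are protein-coding. RefSeq annotates 13 coding, 2 rRNA and 22 tRNA genes on the mitochondrial genome of GRCm38, so every coding gene was represented, while the rRNA and tRNA genes have no row in this table and are not analysed here. The study asked how transcription and chromatin relate to the timing of DNA methylation in growing oocytes. Wild-type C57BL/6 oocytes (C57BL/6Babr in the study's methods) were sorted by diameter into 4 size classes, of which the smallest was 10–30 µm and the largest 60–65 µm, with classes of 40–45 µm and 50–55 µm between them. There were 2 RNA-seq libraries per size class (A and B) and 1 column for GV oocytes, the fully grown oocytes whose nucleus (germinal vesicle) is still intact. The larger classes came from older pre-pubertal mice, so size and age cannot be told apart. No allele or treatment differed between the groups. The pools were picked by hand from digested ovaries and washed to remove somatic cells, and whether A and B came from separate animals is not stated, so p-values measure only the spread between these libraries. A further 6 RRBS libraries (2 for each class from 40–45 µm upwards) and 1 PBAT library (60–65 µm) measured CpG methylation, including on the mitochondrial genome.

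Mitochondrial DNA is a small circular genome that is inherited through the oocyte. Each of its strands is transcribed as a long RNA that is cut into separate messengers, mostly at the tRNAs between them. Its coding genes specify core subunits of the respiratory chain: complex I (Nd1 to Nd6 and Nd4l) takes electrons from NADH, complex III (Cytb) passes them to cytochrome c, complex IV (Co1 to Co3) hands them to oxygen, and the ATP synthase (Atp6 and Atp8) uses the resulting proton gradient. All but Nd6 are read in one direction. The other subunits of these complexes, and all proteins that copy, transcribe and process the mitochondrial genome, come from nuclear genes.

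The mitochondrial genes touch and overlap, and a large part of them has a nearly identical copy in the nucleus. Both facts bear on how reads could be assigned, so the sequences concerned are shown here from RefSeq, build GRCm38, 5′ to 3′. mt-Atp8 (chrMT:7766-7969, plus strand) and mt-Atp6 (chrMT:7927-8607, plus strand) share 43 bases, and capitals mark the start codon of mt-Atp6 and the stop codon of mt-Atp8 within them.
mt-Atp8/mt-Atp6 overlap, chrMT:7927-7969, plus strand: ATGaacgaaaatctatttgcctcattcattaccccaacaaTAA
mt-Nd4l (chrMT:9877-10173) and mt-Nd4 (chrMT:10167-11544), both on the plus strand, share 7 bases, given in capitals.
mt-Nd4l/mt-Nd4 junction, chrMT:10155-10185, plus strand: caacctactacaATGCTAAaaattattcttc
mt-Nd6 (chrMT:13552-14070) is the only coding gene on the minus strand, and its end shares 14 bases, in capitals, with the end of mt-Nd5 (chrMT:11742-13565).
mt-Nd5/mt-Nd6 overlap, chrMT:13542-13575, plus strand: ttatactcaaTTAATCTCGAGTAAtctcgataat

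A stretch of chromosome 1 (chr1:24611535-24616188, minus strand) matched bases 6390 to 11042 of the mitochondrial genome over 4654 aligned bases at 99.936% identity, with 2 mismatches and 1 gap. This stretch contains the whole of mt-Co2, mt-Atp8, mt-Atp6, mt-Co3, mt-Nd3 and mt-Nd4l, 63.6% of mt-Nd4 and 31.3% of mt-Co1, whereas mt-Nd1, mt-Nd2, mt-Nd5, mt-Nd6 and mt-Cytb lie outside it. Within these 8 genes the copy differs at 1 base of mt-Co1 and 1 base of mt-Nd3. The base in mt-Nd3 is shown in capitals in both sequences because it is the only one in mt-Nd3 by which the 2 places can be told apart.
mt-Nd3 around the differing base, chrMT:9441-9481, plus strand: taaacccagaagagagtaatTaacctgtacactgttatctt
Chromosome 1 copy, chr1:24613097-24613137, minus strand: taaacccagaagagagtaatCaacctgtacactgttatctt
The remaining long copies were less similar. A copy on chromosome 2 (chr2:22587288-22590534) had 97.362% identity and covered all of mt-Co1 and mt-Co2 and 49.2% of mt-Nd2. A copy on chromosome 4 (chr4:80002330-80005204) had 93.009% identity and covered all of mt-Nd6 and mt-Cytb and 59.1% of mt-Nd5. The authors let the aligner report 1 place per read, and therefore the levels of the 6 genes wholly inside the chromosome 1 copy, and in part those of mt-Co1 and mt-Nd4, are uncertain.

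The levels of the 13 genes differed by up to 67.08-fold as listed, on the RPKM scale (reads per kilobase of gene, scaled to library size), which allows genes of different length to be compared. mt-Co3 and mt-Co1 had the highest means over the 9 columns, at 316.2 and 309.7 RPKM, followed by mt-Co2 (131.3), mt-Atp6 (108.5), mt-Nd3 (82.8), mt-Atp8 (62.2), mt-Nd1 (29.3), mt-Cytb (27.2), mt-Nd4 (10.9), mt-Nd2 (10.3), mt-Nd5 (5.21), mt-Nd6 (4.81) and mt-Nd4l (4.71). The place of mt-Nd4l at the end, and with it the fold, is uncertain, since the table lists about as much signal again for its identical nuclear copy, Gm10222. mt-Co3, mt-Co2, mt-Atp6, mt-Nd3 and mt-Atp8 also lie wholly in the chromosome 1 copy. Their places in the order, and shares that include them, are uncertain as well. Several neighbours in this order could not be separated. The ratio of mt-Co3 to mt-Co1 ran from 0.789 in GV oocytes to 1.30 in the 10–30 µm A library, so the order of the leading pair changed between libraries. The lowest 3 genes also changed places, with mt-Nd4l above mt-Nd6 in both 10–30 µm libraries and below it in the 40–45 µm A library.

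Complex IV messengers accounted for most of the mitochondrial signal. The 3 complex IV genes took between 72.93% of the reads on mitochondrial coding genes, in GV oocytes, and 83.96%, in the 10–30 µm A library, when RPKM was multiplied back by gene length. mt-Co1, the catalytic subunit, alone took 45.25% to 48.18% in all 9 columns. The 7 complex I genes together took 7.514% to 12.21%, and mt-Cytb, the single complex III gene, 2.287% to 3.858%. Within complex I, mt-Nd3 stood out as high, at 42.3 to 164.9 RPKM, whereas mt-Nd4l, which encodes another small membrane subunit, was at 2.23 to 10.2 RPKM.

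**Figure D1:**
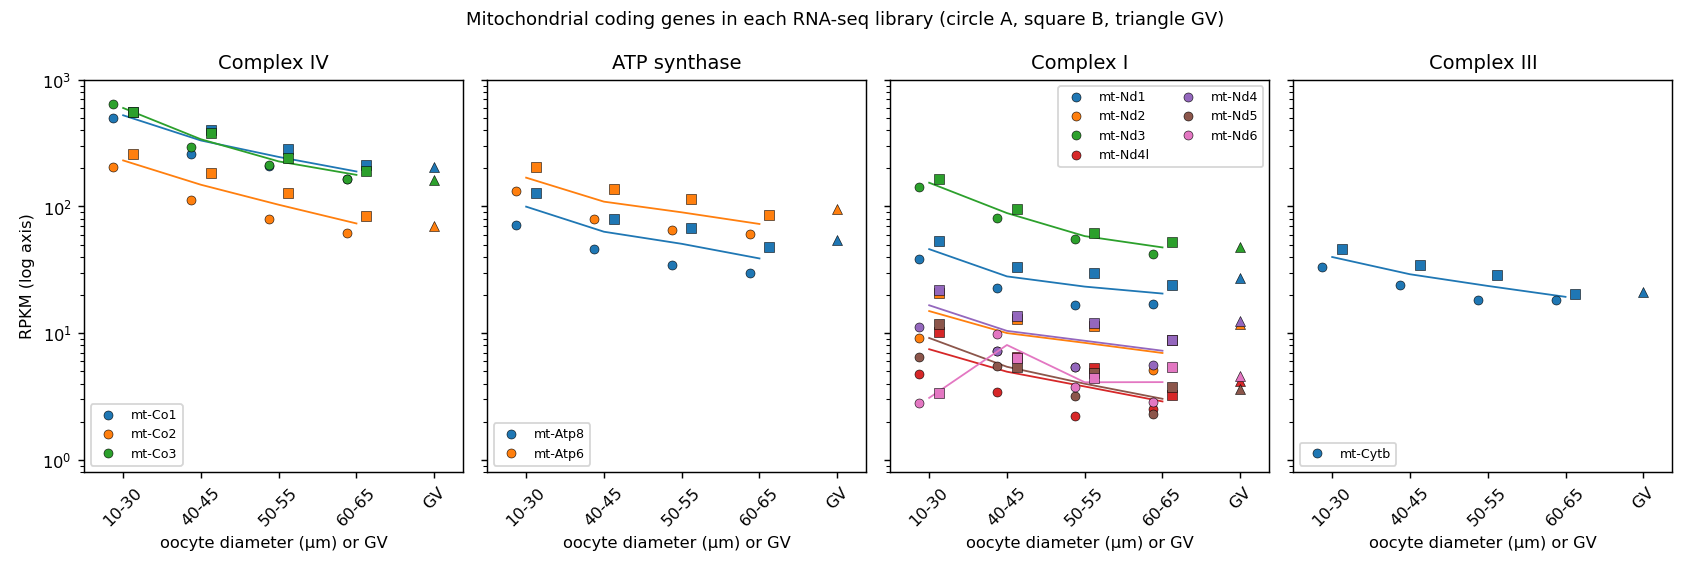
RPKM of each mitochondrial coding gene (log axis) in every library, by oocyte diameter and with GV at the right; circles are replicate A, squares replicate B, triangles GV, and lines join the class means (n = 2). The curves of 12 genes descend from the 10–30 µm to the 60–65 µm class, and mt-Nd6 peaks at 40–45 µm with 9.82 and 6.31 RPKM.

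The 13 genes made up a smaller share of the table in the larger size classes. Their share of the summed RPKM of all genes was 1.899% and 2.182% in the 10–30 µm libraries A and B, 1.011% and 1.478% at 40–45 µm, 0.7557% and 1.07% at 50–55 µm, and 0.6117% and 0.7971% at 60–65 µm. The means were 2.04% ± 0.2001, 1.244% ± 0.3302, 0.9129% ± 0.2222 and 0.7044% ± 0.1311 (SD, n = 2), and the first was 2.9-fold the last. The 10–30 µm libraries lay above all others. The neighbouring larger classes overlapped, since 40–45 µm A lay below 50–55 µm B and 50–55 µm A lay below 60–65 µm B. As a share of the reads that the authors used as the library total, the coding genes took 0.1678% and 0.1872% at 10–30 µm and 0.05429% and 0.07026% at 60–65 µm. GV oocytes were at 0.7791% of the summed RPKM and 0.0676% of the library, between both 60–65 µm libraries. All these values are relative to the other transcripts of the pool, so that less mitochondrial RNA per oocyte and more of other RNA cannot be told apart.

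**Figure D2:**
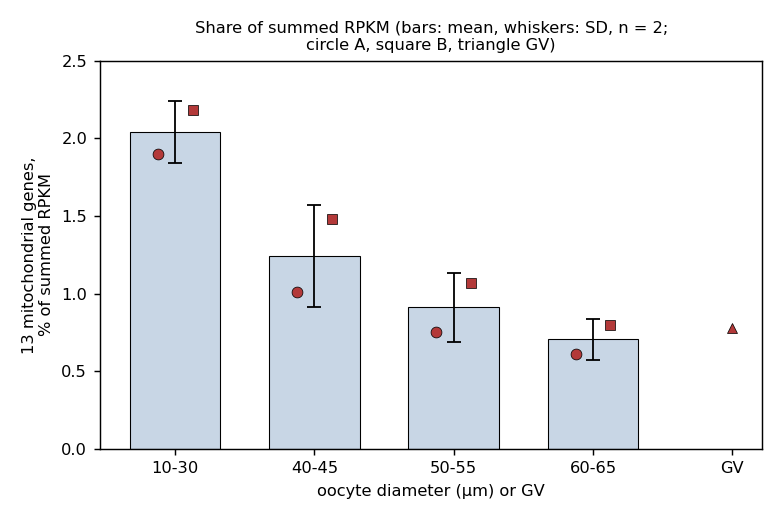
Share of the summed RPKM taken by the 13 mitochondrial coding genes; points are libraries (circle A, square B, triangle GV), bars are class means and whiskers the SD (n = 2). The mean declines from 2.04% at 10–30 µm to 0.7044% at 60–65 µm, and replicate B lies above replicate A in every class.

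In each size class the B library held more mitochondrial signal than the A library. RPKM was higher in B for 12 of 13 genes at 10–30 µm, 11 at 40–45 µm, 13 at 50–55 µm and 13 at 60–65 µm, with median B to A ratios of 1.405, 1.567, 1.586 and 1.402. Over the 10518 genes tested, the median ratios were 1.042, 1.035, 0.9968 and 0.997. The difference was unequal between genes: mt-Nd4l reached a ratio of 2.399 and mt-Nd4 of 2.209 at 50–55 µm, while mt-Nd3 stayed between 1.126 and 1.246 in the 4 classes and mt-Co3 between 0.862 and 1.301. The B libraries were also deeper in every class. Since RPKM of a gene with 1 exon moves in steps of 1 read, library totals could be recovered from the table. In units of 1e+06 reads they were 99.4 to 150.2 in A and 154.6 to 191.1 in B, with 198.3 for GV. Whether 1 step is a read, a read pair or an aligned segment of a read is not stated, so these totals and the recovered read numbers given here count such steps and are not numbers of sequenced fragments. Whether depth has a part in the difference between A and B was not tested. Followed within each letter, the share of the summed RPKM was lower at every step in both, 3.1-fold in A and 2.74-fold in B from 10–30 to 60–65 µm.

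Whole growth, from 10–30 to 60–65 µm, was the comparison with the most calls. limma called 10 of the 13 genes lower (Benjamini-Hochberg adjusted over all genes) and none higher, while 31.5% of all 10518 tested genes were called lower. The median log2 change of the 13 was -1.24, beside 0.00455 over all genes. Both 60–65 µm libraries lay below both 10–30 µm libraries in RPKM for 12 of the 13 genes, an arrangement that 41.9% of all tested genes showed.

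mt-Co3, a core complex IV subunit, had the largest change. It was at 643.0 and 554.3 RPKM in the 10–30 µm libraries, 294.7 and 383.3 at 40–45 µm, 210.6 and 242.9 at 50–55 µm, 163.4 and 191.6 at 60–65 µm and 162.3 in GV oocytes. No 2 size classes of growing oocytes overlapped for this gene. It fell by 1.75 on the log2 scale from 10–30 to 60–65 µm (SE 0.16, limma adjusted p = 4.85e-05). mt-Co1 was at 495.1 and 553.4 RPKM at 10–30 µm, 258.3 and 404.8 at 40–45 µm, 209.9 and 281.8 at 50–55 µm, 164.2 and 213.5 at 60–65 µm and 205.7 in GV oocytes. Its intermediate classes overlapped, and it fell by 1.48 (SE 0.22, limma adjusted p = 0.000587). mt-Co2, which receives electrons from cytochrome c, was at 203.7 and 257.9 RPKM at 10–30 µm, 112.6 and 184.2 at 40–45 µm, 79.8 and 126.6 at 50–55 µm, 62.0 and 84.8 at 60–65 µm and 70.1 in GV oocytes. It fell by 1.65 (SE 0.28, limma adjusted p = 0.001).

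Both ATP synthase genes were called lower as well, and each call held in 13 of 15 alternative fits. mt-Atp6, part of the proton channel, was at 132.5 and 205.0 RPKM at 10–30 µm, 79.8 and 138.4 at 40–45 µm, 65.6 and 114.2 at 50–55 µm, 60.4 and 85.1 at 60–65 µm and 95.7 in GV oocytes, and it fell by 1.19 (SE 0.33, limma adjusted p = 0.0131). mt-Atp8, its partner on the same messenger, was at 71.0 and 128.2 RPKM at 10–30 µm, 46.0 and 80.3 at 40–45 µm, 34.4 and 67.1 at 50–55 µm, 29.9 and 47.9 at 60–65 µm and 54.8 in GV oocytes, and it fell by 1.33 (SE 0.40, limma adjusted p = 0.0182). The ratio of mt-Atp8 to mt-Atp6 stayed within 0.495 to 0.626 in the 9 columns. Their 43 shared bases are the overlap shown above.

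Among the complex I genes on the plus strand, 4 of 6 were called lower. mt-Nd3 was at 143.0 and 164.9 RPKM at 10–30 µm, 81.6 and 95.7 at 40–45 µm, 54.9 and 61.8 at 50–55 µm, 42.3 and 52.7 at 60–65 µm and 48.1 in GV oocytes. Its classes of growing oocytes did not overlap, and it fell by 1.69 (SE 0.13, limma adjusted p = 2.23e-05), the smallest p of the 13. mt-Nd5 was at 6.52 and 11.8 RPKM at 10–30 µm, 5.47 and 5.39 at 40–45 µm, 3.17 and 4.82 at 50–55 µm, 2.32 and 3.76 at 60–65 µm and 3.62 in GV oocytes, and it fell by 1.53 (SE 0.30, limma adjusted p = 0.00235). mt-Nd1 was at 38.3 and 53.8 RPKM at 10–30 µm, 22.8 and 33.3 at 40–45 µm, 16.6 and 30.0 at 50–55 µm, 17.1 and 24.0 at 60–65 µm and 27.4 in GV oocytes. It fell by 1.15 (SE 0.30, limma adjusted p = 0.00917).

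The remaining plus-strand complex I genes, mt-Nd4l, mt-Nd4 and mt-Nd2, had the highest B to A ratios of the 13 in each class up to 50–55 µm, but not at 60–65 µm. mt-Nd4l was at 4.78 and 10.2 RPKM at 10–30 µm, 3.43 and 6.50 at 40–45 µm, 2.23 and 5.36 at 50–55 µm, 2.53 and 3.26 at 60–65 µm and 4.18 in GV oocytes. It fell by 1.24 (SE 0.45, limma adjusted p = 0.0396), a call that held in 9 of 15 alternative fits. mt-Nd4l had as few as 78 recovered reads in a library. mt-Nd4 was at 11.2 and 22.0 RPKM at 10–30 µm, 7.23 and 13.6 at 40–45 µm, 5.43 and 11.996 at 50–55 µm, 5.63 and 8.91 at 60–65 µm and 12.4 in GV oocytes. Its log2 change was -1.13 (SE 0.44, limma adjusted p = 0.0525), on the far side of the threshold of 0.05. In 8 of 15 alternative fits mt-Nd4 was under this threshold. mt-Nd2 was at 9.13 and 20.8 RPKM at 10–30 µm, 7.20 and 12.8 at 40–45 µm, 5.44 and 11.3 at 50–55 µm, 5.09 and 8.86 at 60–65 µm and 11.8 in GV oocytes. Its log2 change was -1.02 (SE 0.46, limma adjusted p = 0.085), and it was under the threshold in 3 of 15 alternative fits. For both genes the 60–65 µm libraries lay below the 10–30 µm libraries, but within a class B was up to 2.272 times A for mt-Nd2 and up to 2.209 times for mt-Nd4.

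mt-Cytb, the cytochrome b of complex III, was at 33.5 and 46.3 RPKM at 10–30 µm, 23.9 and 34.5 at 40–45 µm, 18.3 and 28.9 at 50–55 µm, 18.3 and 20.4 at 60–65 µm and 21.1 in GV oocytes. It fell by 1.02 on the log2 scale (SE 0.24, limma adjusted p = 0.00543), the smallest change among the genes called.

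**Figure D3:**
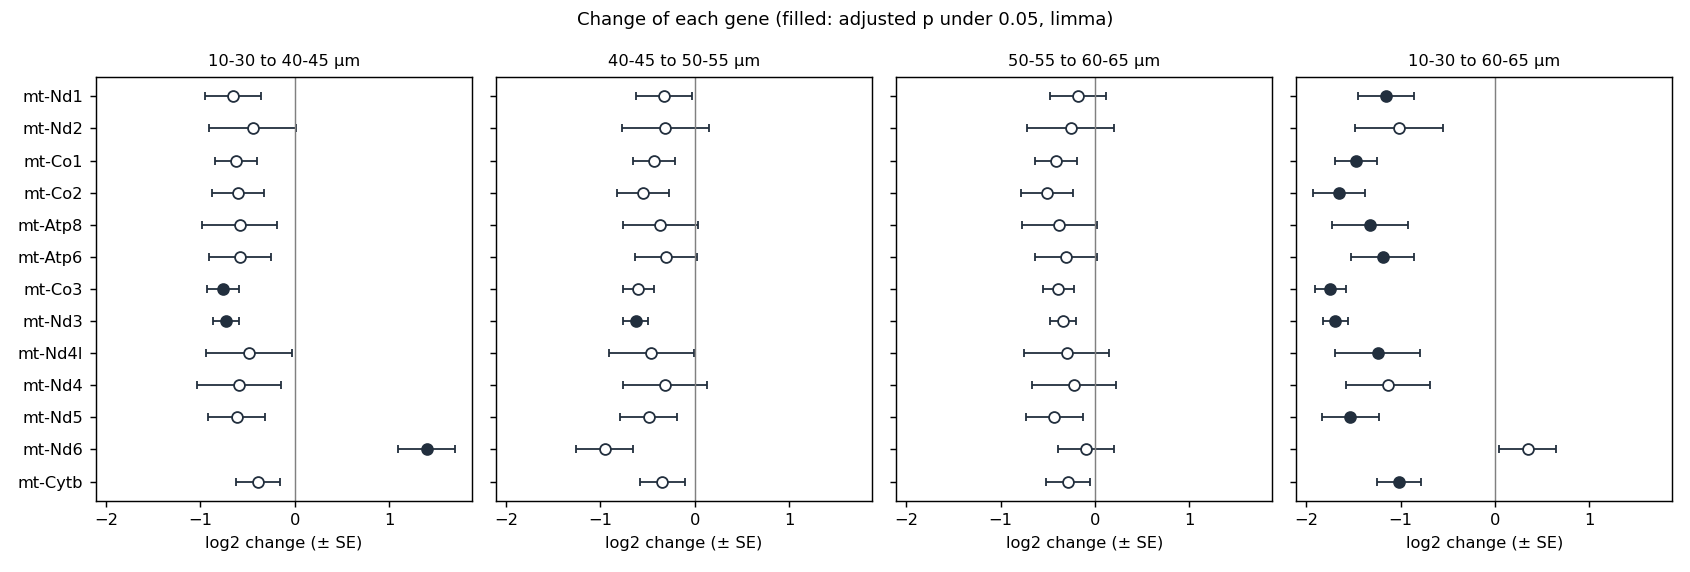
log2 change of each of the 13 genes, in order along the mitochondrial genome, for the 3 consecutive steps and for whole growth; whiskers are SE from limma and filled points have an adjusted p under 0.05. In whole growth 10 points are filled, all left of 0, and mt-Nd6 alone lies to the right of 0, at 0.35, unfilled.

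Step by step, fewer genes passed the test. From 10–30 to 40–45 µm, 2 of 13 genes were called lower beside 9.84% of all genes, with a median log2 change of -0.59 over the 13 and -0.0047 over all genes. They were mt-Co3, which fell by 0.76 (SE 0.16, limma adjusted p = 0.0143), and mt-Nd3, which fell by 0.73 (SE 0.13, limma adjusted p = 0.00795). Both 40–45 µm libraries lay below both 10–30 µm libraries for 6 of the 13 genes, beside 37% of all genes. From 40–45 to 50–55 µm, 1 of 13 was called lower beside 3.1% of all genes, with medians of -0.44 and 0.00717. This was mt-Nd3, which fell by 0.63 (SE 0.13, limma adjusted p = 0.029), and the classes were apart in this direction for 4 of 13 genes beside 26.5% of all. From 50–55 to 60–65 µm, 0 of 13 genes and 0% of all genes were called by limma, with medians of -0.31 and -0.000859, although 1429 of 10518 genes had an unadjusted p under 0.05. The classes were apart downwards for 2 of 13 genes, mt-Co3 and mt-Nd3, beside 22.3% of all. Consecutive steps share the libraries of the class between them. Within each letter, A and B alike, the larger class was lower for 12 of 13 genes in the first step, mt-Nd6 being the exception, and for 13 of 13 in the second. In the last step it was lower for 9 of 13 in A and 12 of 13 in B. The share of all genes is not given for these comparisons of single libraries, so the counts describe the members only.

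The few calls of the consecutive steps changed when single libraries were left out. In the first 2 steps they were also more numerous with the letter A or B in the fit. Those counts are in the closing section, since the criterion for pairing was not met. The share of all genes called in these other fits is not given here. Without the 40–45 µm A library no gene was called lower in the first step, and without the 10–30 µm A library 1 was. Leaving out any library of the classes compared left none called in the second step, and leaving out either 10–30 µm library gave 2. For whole growth the count was 6 of 13 without the 60–65 µm A library and 7 without the 10–30 µm B library, against 9 to 12 without any other.

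mt-Nd6, the complex I subunit encoded on the opposite strand, was the exception among the 13. It was at 2.79 and 3.38 RPKM at 10–30 µm, 9.82 and 6.31 at 40–45 µm, 3.79 and 4.41 at 50–55 µm, 2.84 and 5.38 at 60–65 µm and 4.60 in GV oocytes. Both 40–45 µm libraries lay above every other library. It rose by 1.40 on the log2 scale from 10–30 to 40–45 µm (SE 0.30, limma adjusted p = 0.0137), beside 13.2% of all genes called higher, and both libraries lay above both at 10–30 µm, as for 22.4% of all genes. Its change from 40–45 to 50–55 µm was -0.96 (SE 0.30, limma adjusted p = 0.0816), that from 50–55 to 60–65 µm was -0.10 (SE 0.30, limma adjusted p = 0.929), and that over whole growth was 0.35 (SE 0.30, limma adjusted p = 0.339). Without the 60–65 µm A library the change over whole growth was 0.81 (limma adjusted p = 0.0438), the only alternative of 15 in which it passed the threshold. The rise missed the threshold without the 10–30 µm A library (1.30, limma adjusted p = 0.068) and without the 40–45 µm A library (1.05, limma adjusted p = 0.0855), and passed it in the other 13 of 15 alternatives, over all of which the adjusted p ran from 0.00909 to 0.0855. The gene had 144 and 279 recovered reads at 10–30 µm and 766 and 626 at 40–45 µm, so its level in the smallest oocytes rests on few reads.

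Relative to its overlapping neighbour, mt-Nd6 changed place with growth. Its ratio to mt-Nd5 was 0.429 and 0.286 at 10–30 µm, 1.79 and 1.17 at 40–45 µm, 1.20 and 0.915 at 50–55 µm, 1.23 and 1.43 at 60–65 µm and 1.27 in GV oocytes. It thus lay below mt-Nd5 in both 10–30 µm libraries and above it in 6 of the 7 other columns. The minus strand supplied 0.156% and 0.166% of the mitochondrial RPKM at 10–30 µm and 0.445% to 1.03% in the other columns. The libraries were strand-specific by dUTP, but strand-aware counting is not stated. If strand was not used, reads of the plus-strand transcript across this region and reads of mt-Nd6 cannot be told apart.

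GV oocytes were compared with the 60–65 µm class, without a replicate or a test. The GV value lay above both 60–65 µm libraries for 7 genes, between them for 5 and below both for 1. The share of all genes in these arrangements is not given here, so the counts are a description of the members only. The highest ratios of GV to the mean at 60–65 µm were those of mt-Nd4 (1.71), mt-Nd2 (1.69), mt-Nd4l (1.44) and mt-Atp8 (1.41). The GV values of mt-Nd4 and mt-Nd2 also lay above the means at 40–45 µm, which were 10.43 ± 4.53 and 10.02 ± 3.99 RPKM (SD, n = 2). mt-Co3 had the lowest ratio, at 0.914.

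The chromosome 1 copy has a row of its own in the table. Gm10222 (chr1:24612404-24612700, minus strand) corresponds base for base to mt-Nd4l, with 0 differences over 297 bases. The first 60 bases, with the start codon in capitals, are the same in both places.
mt-Nd4l and Gm10222, chrMT:9877-9936, plus strand: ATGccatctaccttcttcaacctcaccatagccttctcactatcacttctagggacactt
The values of Gm10222 followed those of mt-Nd4l in every library. Gm10222 was at 5.05 and 9.11 RPKM at 10–30 µm, 2.71 and 5.57 at 40–45 µm, 1.63 and 4.20 at 50–55 µm, 2.66 and 3.31 at 60–65 µm and 4.01 in GV oocytes. The ratio of mt-Nd4l to Gm10222 lay between 0.946 and 1.37. The other genes in the table that overlap shorter or less similar copies are either large nuclear genes or, as AC154271.1 on chromosome 13, listed at 0 in every column. No other row covers the part of the chromosome 1 copy with mt-Co2, mt-Atp8, mt-Atp6, mt-Co3 and mt-Nd3, so a share of reads placed there would be in no row. The 6 genes wholly inside the copy had log2 changes of -1.75 to -1.19 over whole growth, and the 4 plus-strand genes wholly outside it of -1.53 to -1.02.

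**Figure D4:**
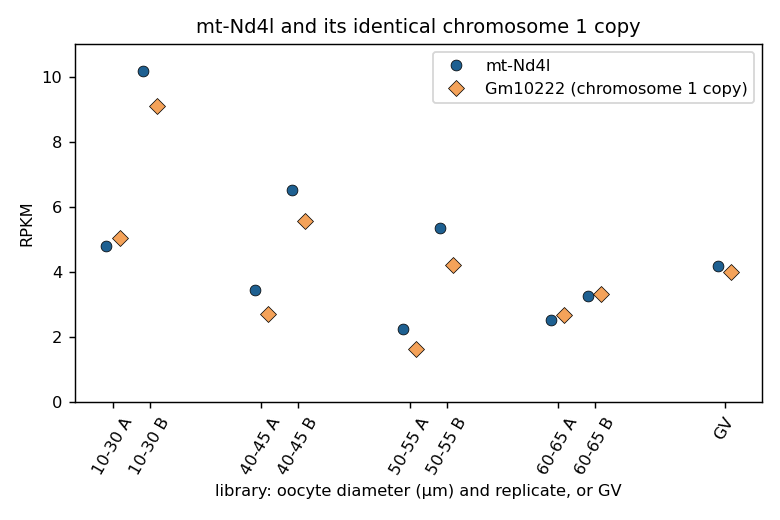
RPKM of mt-Nd4l (circles) and of Gm10222, its identical copy on chromosome 1 (diamonds), in the 9 columns. Each pair lies close together, from 1.63 and 2.23 RPKM in the 50–55 µm A library to 9.11 and 10.2 RPKM in the 10–30 µm B library.

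Nuclear genes for the partner subunits of the same complexes were also lower in larger oocytes. Over whole growth 10 of 10 listed complex IV genes, 9 of 9 complex I genes, 9 of 9 ATP synthase genes and 6 of 9 complex III genes were called lower and none higher, beside 31.5% lower among all genes. The median log2 changes of the lists were -0.82, -0.73, -0.71 and -0.74, whereas that of the mitochondrial genes was -1.24. Cox6c, a small complex IV subunit, was at 13.2 and 11.5 RPKM at 10–30 µm and 4.74 and 5.08 at 60–65 µm, and it fell by 1.31 (SE 0.12, limma adjusted p = 4.7e-05). Cox6b1, another small subunit, fell by 1.08 (SE 0.16, limma adjusted p = 0.000449), and Cox4i1, the largest nuclear subunit of complex IV, fell by 1.04 (SE 0.14, limma adjusted p = 0.000278). Cyc1, the cytochrome c1 that neighbours Cytb in complex III, was at 10.8 and 10.9 RPKM at 10–30 µm and 3.63 and 3.74 at 60–65 µm, and it fell by 1.52 (SE 0.11, limma adjusted p = 1.75e-05). Ndufs8, an iron-sulphur subunit of complex I, was at 16.7 and 12.4 RPKM at 10–30 µm and 4.94 and 5.51 at 60–65 µm, and it fell by 1.44 (SE 0.16, limma adjusted p = 0.000121). Atp5o, in the stalk of the ATP synthase, fell by 1.03 (SE 0.14, limma adjusted p = 0.000318). The complex III genes not called, named here after their values were seen, were Uqcrc2, Uqcrfs1 and Uqcrq.

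Few genes of mitochondrial transcription were called. Of 10 listed, 9 were tested, 2 were called higher beside 31.8% of all genes, and none was called lower. The median log2 change was -0.00896. Tfam, which packages mitochondrial DNA and starts its transcription, was at 7.90 and 8.20 RPKM at 10–30 µm and 6.80 and 7.41 at 60–65 µm, with a log2 change of -0.17 (SE 0.11, limma adjusted p = 0.184). Polrmt, the mitochondrial RNA polymerase, was at 2.31 and 2.87 RPKM at 10–30 µm and 3.25 and 3.27 at 60–65 µm, and it rose by 0.34 (SE 0.12, limma adjusted p = 0.043). The other gene called was Mterf1b, a termination factor listed under its older symbol Gm9897, which rose by 0.47 (SE 0.15, limma adjusted p = 0.021). The call for Polrmt held in 5 of 15 alternative fits, with limma adjusted p from 0.0135 to 0.242. That for Mterf1b (Gm9897) held in 12 of 15, with limma adjusted p from 0.00641 to 0.109, and was lost without 10–30 µm B, 60–65 µm A or 60–65 µm B. Without either 60–65 µm library no gene of the list was called higher. Under the unscaled RPKM and under both other scalings, 1 gene of the list was called lower and 1 higher.

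Of the 11 replication genes, 9 were tested, 4 were called higher and 3 lower, beside 31.8% and 31.5% of all genes. Twnk (listed as Peo1), the helicase of the mitochondrial replication fork, was at 2.52 and 3.03 RPKM at 10–30 µm and 4.32 and 4.31 at 60–65 µm, and it rose by 0.63 (SE 0.10, limma adjusted p = 0.000757). Rrm2b, a ribonucleotide reductase subunit, rose by 0.64 (SE 0.13, limma adjusted p = 0.00321), and Rnaseh1, which removes RNA from RNA-DNA hybrids, rose by 0.52 (SE 0.13, limma adjusted p = 0.00732). Polg, the catalytic subunit of the mitochondrial DNA polymerase, rose by 0.27 (SE 0.10, limma adjusted p = 0.0447), a call that held in 3 of 15 alternative fits. Ssbp1, the single-stranded DNA binding protein of mitochondria, was at 3.21 and 2.61 RPKM at 10–30 µm and 1.52 and 1.64 at 60–65 µm, and it fell by 0.83 (SE 0.15, limma adjusted p = 0.00138). Mgme1 (listed as 8430406I07Rik), a mitochondrial exonuclease, fell by 0.50 (SE 0.11, limma adjusted p = 0.00467), and Primpol (listed as Ccdc111), a primase and polymerase, fell by 0.39 (SE 0.11, limma adjusted p = 0.0135).

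Genes that process or degrade mitochondrial RNA were called in both directions. All 18 processing genes were tested, 7 were called lower and 2 higher, beside 31.5% and 31.8% of all genes, with a median log2 change of -0.13. Hsd17b10, a subunit of the enzyme that cuts tRNAs out at their 5′ ends, was at 16.4 and 13.8 RPKM at 10–30 µm, 3.13 and 4.43 at 60–65 µm and 1.66 in GV oocytes, and it fell by 1.98 (SE 0.18, limma adjusted p = 4.39e-05). Elac2, which cuts at their 3′ ends, fell by 0.57 (SE 0.12, limma adjusted p = 0.00293). Lrpprc, which with Slirp (listed as 1810035L17Rik) stabilises mitochondrial messengers, was at 6.76 and 6.65 RPKM at 10–30 µm and 4.60 and 4.77 at 60–65 µm, and it fell by 0.50 (SE 0.09, limma adjusted p = 0.00183). Slirp fell by 0.58 (SE 0.20, limma adjusted p = 0.029) and Fastkd2, of the FASTK family of mitochondrial RNA binding proteins, by 0.60 (SE 0.12, limma adjusted p = 0.00255). Fastkd5, of the same family, rose by 0.65 (SE 0.10, limma adjusted p = 0.000585). The other gene called higher, named after its value was seen, was Ptcd2 (0.27, SE 0.10, limma adjusted p = 0.0478), an RNA binding protein of mitochondria. In 12 of 15 alternative fits, all other scalings and all leave-outs included, 1 processing gene was called higher. Without the 60–65 µm A library 4 were called lower.

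Of the 5 RNA decay genes, 3 were called lower and 1 higher, beside 31.5% and 31.8% of all genes. Rexo2, an oligoribonuclease, was at 8.13 and 8.15 RPKM at 10–30 µm and 3.99 in both 60–65 µm libraries, and it fell by 1.00 (SE 0.09, limma adjusted p = 4e-05). Pnpt1, the polynucleotide phosphorylase of mitochondria, fell by 0.50 (SE 0.14, limma adjusted p = 0.0136), Grsf1, an RNA granule protein, fell by 0.38 (SE 0.11, limma adjusted p = 0.0133), and Pde12, which removes poly(A) tails, rose by 0.51 (SE 0.11, limma adjusted p = 0.00354). Without the 60–65 µm A library only 1 decay gene was called lower. Of 6 genes for nuclear regulators of mitochondrial biogenesis, 3 passed the filter on low values, and 2 were called higher and 1 lower, beside the same shares of all genes. With no filter, 2 genes of this list were called lower. Esrra, which the filter left out, was at 0.4479 and 0.4484 RPKM at 10–30 µm and 0.0899 and 0.1002 at 60–65 µm. Of the others left out, Ppargc1a was higher in both 60–65 µm libraries than in both 10–30 µm libraries, and Pprc1 overlapped. Nrf1, a transcription factor of respiratory genes, was at 3.33 and 3.29 RPKM at 10–30 µm and 6.79 and 6.02 at 60–65 µm, and it rose by 0.94 (SE 0.10, limma adjusted p = 9.85e-05). Ppargc1b, a coactivator, rose by 1.73 (SE 0.26, limma adjusted p = 0.000588) from 0.166 and 0.358 RPKM. Both of these values lie under the filter of 0.5 RPKM, so Ppargc1b was tested only because of its level in larger oocytes. Gabpa, another transcription factor of respiratory genes, fell by 0.81 (SE 0.12, limma adjusted p = 0.00053).

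The oocyte identity of the pools was checked with marker lists. All 12 oocyte markers reached 0.5 RPKM in every library, with a summed level of 3215 to 4353 RPKM in growing oocytes and 2974 in GV oocytes. The summed level of 12 granulosa markers was 2.14 to 2.547 RPKM at 10–30 µm and 7.32 to 7.95 at 60–65 µm, with Foxl2 at or below 0.0642 and Wt1 at or below 0.0487 in every column and Nr5a2 at 1.29 in the 10–30 µm A library and 5.56 in GV oocytes. Markers at 0.5 RPKM or more numbered 1 at 10–30 µm and 3 at 60–65 µm, where Cyp19a1 was at 1.25 and 1.04 and Inha at 0.542 and 0.528 RPKM, against 0.161 and 0.159, and 0.1365 and 0.2004, at 10–30 µm. Kitl was at 0.495 and 0.409 RPKM at 60–65 µm against 0.192 and 0.1396. The summed level of 8 theca and stroma markers was 2.767 and 2.036 RPKM at 10–30 µm and 0.4406 to 1.411 RPKM in the larger classes, led by Col1a1 at 1.625 and 1.163 RPKM at 10–30 µm and 0.4 and 0.2409 at 60–65 µm, and that of 5 of 7 listed blood and immune markers at most 0.348 RPKM. The endothelial list summed to 0.544 to 5.77 RPKM, nearly all from Pecam1, with Cdh5 and Kdr at or below 0.088. The summed granulosa level, most of it from Nr5a2, and Pecam1 were higher in larger oocytes. Foxl2, Wt1 and Krt18 of the granulosa list overlapped between 10–30 and 60–65 µm. The theca and stroma level was highest at 10–30 µm, as the mitochondrial share was. Whether other cell types had a part in the mitochondrial values was not tested.

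The methylation libraries read the mitochondrial genome itself, of 16299 bp with 287 CpGs and 11 MspI sites. Bisulphite turns unmethylated cytosines into bases read as thymine, so that each call is methylated or unmethylated. RRBS is aimed at the ends of MspI fragments and PBAT at the whole genome. Whether every mitochondrial position listed by RRBS lay at such an end was not checked. PBAT listed 486 mitochondrial CpG cytosines with 806554 calls, 0.814% of all calls of that library, and the mean was 1660 calls per listed mitochondrial position against 3.336 per autosomal position. The 6 RRBS libraries listed 176 to 298 mitochondrial positions with 12646 to 113750 calls, 0.0337% to 0.339% of their calls. The mitochondrial share of RRBS calls was 0.0789% ± 0.0639 at 40–45 µm, 0.116% ± 0.0313 at 50–55 µm and 0.244% ± 0.134 at 60–65 µm (SD, n = 2). The single libraries were at 0.0337% and 0.124%, 0.0938% and 0.138%, and 0.339% and 0.149%, so the 60–65 µm libraries lay above all others, while the smaller classes overlapped. With 2 libraries against 2, an exact permutation test cannot give a two-sided p below 0.333, and none was run.

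Methylation was low on the mitochondrial genome in all 7 libraries. Over all mitochondrial calls, RRBS gave 1.38% and 1.39% at 40–45 µm, 1.46% and 1.08% at 50–55 µm and 1.31% and 1.21% at 60–65 µm. The autosomal calls of the same libraries were 3.17% and 2.88%, 6.47% and 6.56%, and 7.85% and 8.75% methylated, so that the autosomal value was higher in the larger classes. The mitochondrial values at 50–55 µm spanned those of both other classes, and both values at 60–65 µm lay below both at 40–45 µm. In PBAT, 3.45% of the mitochondrial calls were methylated (95% Wilson interval 3.41% to 3.49%, counting error only) beside 22.2% of autosomal calls. The mean over positions with at least 5 calls was 1.59% ± 0.516, 0.762% ± 0.0679 and 0.954% ± 0.263 in the 3 RRBS classes (SD, n = 2) and 6.6% in PBAT. Incomplete conversion was not tested, since the lambda DNA control was not analysed here.

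The positions that PBAT listed were spread unevenly between the interval with the chromosome 1 copy and the rest. Outside the interval matched on chromosome 1, it listed 423 of 424 CpG cytosines, with a median of 1660 calls, and inside it 63 of 150, with a median of 149 calls. None of the CpG cytosines of mt-Atp8 and mt-Atp6 was listed, 3.12% of those of mt-Co2 and 25% of those of mt-Co3, whereas all cytosines were listed in mt-Nd1, mt-Nd2, mt-Co1, mt-Nd3, mt-Nd5, mt-Nd6 and mt-Cytb. Of the CpG cytosines of mt-Nd4l 91.7% were listed, and of mt-Nd4 71.4%. mt-Nd3 and mt-Nd4l, also wholly in the copy, had a median of 154 and 58 calls per position, against 1268 to 1796 in mt-Nd1, mt-Nd2, mt-Co1, mt-Nd5, mt-Nd6 and mt-Cytb. In the 7 genes with at least 21728 calls, between 2.76% of calls (mt-Nd4) and 3.86% (mt-Nd2) were methylated.

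**Figure D5:**
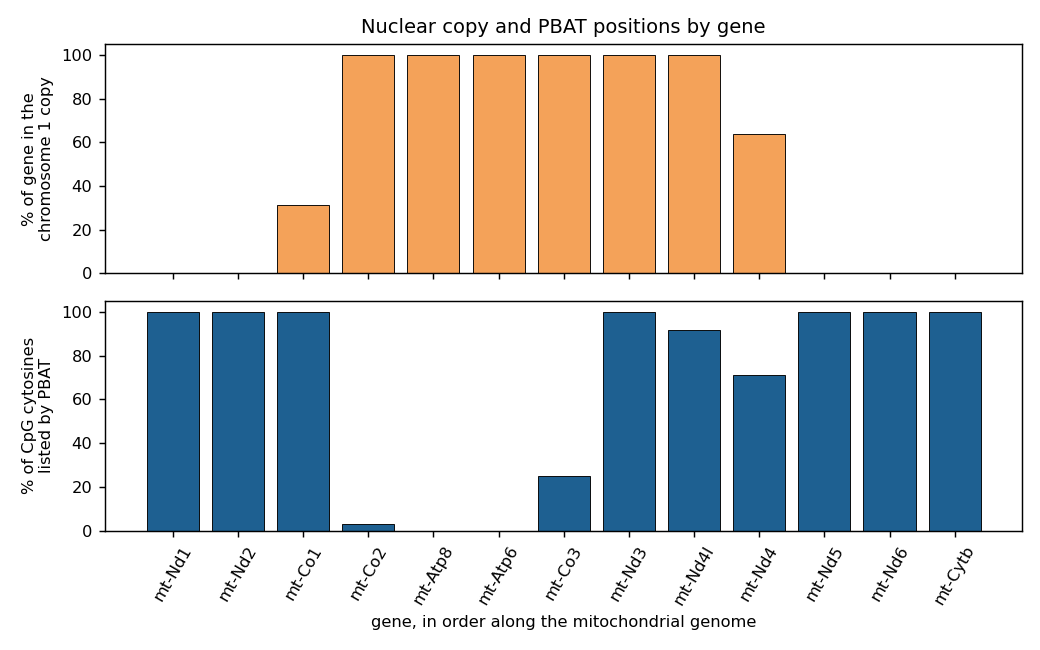
For each mitochondrial coding gene, in genome order, the percent of its length in the chromosome 1 copy (upper bars) and the percent of its CpG cytosines, counted on both strands, that the PBAT library listed (lower bars). mt-Atp8 and mt-Atp6 lie wholly in the copy and have no listed position, and mt-Co2 has 3.12%.

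PBAT calls differed between the strands. On the minus strand a position had a median of 2657 calls, all 249 positions were under 10% methylated, and 2.79% of calls were methylated. On the plus strand the median was 417 calls, 166 of 237 positions were under 10% methylated, and 6.52% of calls were methylated. In the RRBS libraries the plus strand was at 0.553% to 1.05% and the minus strand at 1.09% to 1.64%. Positions with at least 50% methylation and 20 calls in PBAT numbered 7, all on the plus strand. Of these, 1 lay in mt-Nd2 and 6 were the plus-strand CpG cytosines of mt-Nd6, all of which were among the 7. The 4 nearest the end of mt-Nd5 lay close together, and the 2 beyond them were at 51.6% of 31 and 58.3% of 36 calls. This stretch, chosen after these values were seen and given as a description with no test, is shown with its 4 CpGs in capitals.
Mitochondrial stretch, chrMT:13552-13650, plus strand: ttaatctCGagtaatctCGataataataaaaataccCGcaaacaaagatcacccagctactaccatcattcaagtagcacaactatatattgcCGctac
The same stretch of the chromosome 4 copy is given with the 4 bases that differ in capitals.
Chromosome 4 copy, chr4:80003396-80003494, plus strand: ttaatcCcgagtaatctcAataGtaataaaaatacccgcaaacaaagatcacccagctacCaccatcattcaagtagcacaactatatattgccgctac
At the 4 plus-strand cytosines, 77.6% of 58, 83.3% of 54, 77.8% of 54 and 82.2% of 45 calls were methylated. At the paired minus-strand cytosines, 2.45% of 3474, 2.35% of 3404, 1.94% of 3096 and 2.14% of 3699 calls were. The high values were on the strand with few calls. The chromosome 4 copy keeps 3 of the 4 CpGs and lacks the one at position 13569. Whether the few calls or reads from the copy have a part in these values was not tested. In the RRBS libraries this stretch was read almost only on the minus strand, with 0% methylation at all but 2 of the library and position pairs.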

How the data were processed

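RNA-seq was done on 8 libraries of sorted growing oocytes and 1 GV column, and methylation on 6 RRBS and 1 PBAT libraries, grouped by the sample labels. Per the methods, the authors trimmed reads with Trim Galore (0.2.8 for RNA, 0.3.5 for bisulphite reads), aligned RNA with TopHat2 2.0.9 keeping 1 place per read and bisulphite reads with Bismark (0.14.0 for RRBS, 0.10.0 for PBAT, then deduplicated) to GRCm38, and deposited gene values as RPKM. Which program made the RPKM table is not stated. The deposited methylation files give, per CpG cytosine, the percent methylated and the counts of methylated and unmethylated calls. How rRNA was handled is not given in the sources used here.

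RPKM was scaled by a trimmed mean (30% by ratio, 5% by level; factors 0.951 to 1.06), and log2(RPKM + 0.1) was fitted with limma 3.58.1 (R 4.3.3, trend) over the 10518 genes of at least 0.5 RPKM in 2 of 8 libraries, with Benjamini-Hochberg adjustment and a threshold of 0.05. Fold changes of low genes are understated by the pseudocount. No count model was used. Reads were recovered from RPKM times length; within 0.01 read, at least 99.49% of values up to 1000 reads of genes with 1 exon were whole. Nuclear copies were found with BLAST+ 2.17.0 against GRCm38 (at least 90% identity). Methylation was computed from the counts, at positions with at least 5 calls or over all calls.

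All 13 mitochondrial genes are named. From the nuclear lists, genes called in whole growth are named from the largest change down. They number at most 6 per list and fewer for the respiratory complexes. Ptcd2, 3 complex III genes and the biogenesis genes left out by the filter were added after their values were seen. Tfam, Polrmt, Polg and Lrpprc are named in any case. Older symbols were matched through RefSeq. Members and lists were chosen with earlier results of these data known. Alternatives were other scalings, pseudocount 1, no filter, only the 4 libraries compared, a replicate block and each library left out.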

Additional observations from a re-analysis of the deposited data

How the results depend on the processing

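Counts of mitochondrial genes called lower depended on single libraries more than on scaling. From 10–30 to 40–45 µm (2 called), no filter on low values gave 1, the fit of only the 4 libraries compared gave 1, and leave-outs gave 0 to 3. From 40–45 to 50–55 µm (1 called), no filter gave 0 and leave-outs 0 to 2. From 50–55 to 60–65 µm the count was 0 in every fit, leave-outs included (range 0 to 0). Over whole growth (10 called), leave-outs gave 6 to 12, and no other alternative moved the count by more than 1.5 times. A and B did not meet the criterion for pairing the classes, that every correlation of their deviations exceed 0.1: these were 0.588 to 0.669 among the 3 smaller classes, but -0.227, -0.0256 and 0.113 with 60–65 µm. With the letter as a replicate block the first 2 steps had 11 and 4 calls and whole growth 12, then with mt-Nd2 (limma adjusted p = 6.65e-05) and mt-Nd4 (limma adjusted p = 5.7e-05). The share of all genes called in each alternative fit is not given here, so these member counts have no background to be set against. Leave-outs moved the log2 change of mt-Nd2 in the first step between -0.9923 and 0.0807, that of mt-Nd6 in the last step between -0.5458 and 0.3594, and that of mt-Nd6 over whole growth between -0.0972 and 0.8084, so each turned in at least 1 leave-out. Signs of 6 genes turned in leave-outs from 40–45 to 50–55 µm and of 8 genes from 50–55 to 60–65 µm. Leaving a library out leaves 1 in its class, assumed to vary like the others.

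Leave-outs gave shares of summed RPKM of 1.899% to 2.182%, 1.011% to 1.478%, 0.7557% to 1.07% and 0.6117% to 0.7971% by class, and other denominators moved them by less than 1 SD. RRBS methylation was 1.07% at 40–45 µm and 0.577% at 50–55 µm with a minimum of 1 call, 0.903% at 50–55 µm with 10, and 1.27% at 50–55 µm and 1.26% at 60–65 µm over pooled calls, with single libraries at 0.714% to 1.96%. PBAT gave 6.7%, 6.52% and 3.45%. With pooled calls the order of the RRBS classes was not kept; the cause was not tested. mt-Nd4l and mt-Nd6 had the fewest recovered reads of the mitochondrial genes in every column. The SE of their changes over whole growth was 0.45 and 0.30, beside 0.46 for mt-Nd2.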
